A study of Mus musculus with 20 samples.

Results

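Brain was compared with heart, lung and skeletal muscle of the mouse on short-oligonucleotide expression arrays, 1 sample per array. The 3 brain arrays were taken by their tissue label, as were 9 arrays of the other tissues, 3 each. These 12 are part of 20 arrays in a series on sleep apnea and glucose metabolism, and the 8 adipose arrays of that series were not used here. All 12 held total RNA of C57BL-6J mice, an inbred strain, at 20 weeks of age. In each tissue 1 array came from control mice with neither exposure, 1 from mice with sleep fragmentation, in which sleep is interrupted again and again, and 1 from mice with hypoxia, a lowered oxygen supply. The brain samples were therefore a control, a sleep fragmentation and a hypoxia array, and no exposure has a replicate within a tissue. The labels give neither the part of the brain, nor the number of animals behind a sample, nor the course of the hypoxia in these mice. A p-value here measures the spread between arrays after a shared effect of exposure was removed, and the number of arrays limits the precision.

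The brain is built of neurons, which signal by electrical impulses and release transmitter from vesicles at synapses, and of glia. Glutamate excites and GABA inhibits the receiving neuron. Astrocytes clear transmitter and supply neurons, oligodendrocytes wrap axons in myelin, and microglia are the resident macrophages. The brain lives mainly on glucose that crosses the blood-brain barrier, while heart and skeletal muscle contract by sarcomeres and burn much fatty acid, and the lung is an epithelium on a dense bed of capillaries.

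A level below is log2 of the quantile-normalized intensity plus an offset of 106, so 6.73 is the lowest level possible and differences of dim genes are understated. A difference is brain minus the mean of the other 3 tissues on this log2 scale, with the standard error of the limma fit, and a probe set passed where its Benjamini-Hochberg adjusted p over all 12422 probe sets was under 0.05. The 3 brain arrays correlated with each other at 0.947 to 0.960 and with arrays of the other tissues at 0.717 to 0.794. The deposited median intensity was 349 to 413 on 11 arrays and 1480 on the brain hypoxia array, 3.76 times the mean of the other medians, before normalization. For Actb, a control transcript read at both ends, the 3' probe set was 0.683, 0.662 and 0.0343 times the 5' probe set on the control, fragmentation and hypoxia brain arrays, and 0.0288 to 0.0635 times on the lung arrays. The same ratio for Gapdh was 0.873, 1.09 and 1.6 on the brain arrays, highest on hypoxia, and 0.821 to 0.915 on the lung arrays. Heart read 0.443, 1.15 and 0.136 for Gapdh, in the same order of exposures, and muscle 0.0261, 0.264 and 0.00899. Muscle under hypoxia thus had the lowest Gapdh value of all arrays. For Actb, heart lay at 0.964 to 1.18 and muscle at 1.2 to 1.52.

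Each brain array also stood apart in its own genes. On the hypoxia array 48 probe sets lay 4-fold or more below both other brain arrays, at a median level of 8.54 against 11.94. None lay so far above. The control array had 6 such low and 3 such high probe sets, and the fragmentation array 3 low and 9 high. Among the 48 were App, the amyloid precursor protein (levels 12.59, 13.5 and 8.49 on control, fragmentation and hypoxia), and Gnas, a G protein subunit (12.09, 13.25 and 8.29). Gnas passed as lower in brain (-1.98 ± 0.67, adjusted p = 0.0463), although its control and fragmentation levels lay within the range of the other tissues (11.67 to 13.56 with a median of 13.43). Another probe set of Gnas passed as higher (1.37 ± 0.25). The control array was low in genes of the forebrain and high in Scgb1a1 and Acta1, and the fragmentation array was high in growth hormone, as described with those genes below. Whether dissection, RNA quality or the array itself set these differences was not tested.

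Some tissue markers went against their labels on the other arrays. Sftpc, a surfactant protein of the lung, read 8.23, 9.96 and 6.86 on the control, fragmentation and hypoxia lung arrays, below or near its heart levels of 9.70 to 9.93. Acta1, the actin of skeletal muscle, read 10.58, 9.39 and 10.74 in muscle against 12.67, 12.30 and 12.35 in heart, and was highest of all on the lung hypoxia array (13.30). Scgb1a1, a protein of airway club cells, read 8.71, 13.10 and 8.94 in lung, so its control and hypoxia levels lay below those of heart (9.73 to 10.86). Atp2a1, the calcium pump of fast muscle, read 8.07, 10.26 and 9.56 in muscle against 11.39, 8.99 and 11.02 in brain. It was highest on the lung hypoxia array (11.58). Myh4 and Tnnt3, also of fast muscle, were highest in muscle (11.50 to 12.23 and 13.99 to 14.10). Yet Myh4 read 10.14, 7.73 and 10.97 in brain, and Tnnt3 10.68 on the lung hypoxia array. Sftpb followed its label, at 12.17 to 12.86 in lung and at most 9.24 elsewhere. Tnni2 did so too, at 12.38 to 12.78 in muscle and at most 8.81 elsewhere. The lung arrays carried cardiac genes, with Myl7, an atrial myosin light chain, at 12.32 to 12.72. Sftpc, Scgb1a1, Acta1 and Atp2a1 did not pass between brain and the other tissues. Why these markers ran against the labels was not tested.

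Of 12422 probe sets, 2002 were higher in brain (16.1% of those tested) and 2102 lower (16.9%), and the median difference over all probe sets was -0.06. At an unadjusted p under 0.05 there were 5159. Differences of 2-fold or more numbered 1041 higher and 898 lower, and those of 16-fold or more 51 higher and 10 lower. The stricter call, higher than each of heart, lung and muscle separately, was met by 942 probe sets (7.58%), and lower than each by 506 (4.07%). These held 691 and 394 genes when 1 probe set, that with the highest mean, stood for each gene. All 3 brain arrays lay above all 9 others for 1192 probe sets (9.6%) and below all 9 for 778 (6.26%). Without the control, fragmentation or hypoxia brain array in turn, 1607, 1596 and 1677 probe sets were higher and 1591, 1648 and 1731 lower. Of 148 called genes chosen by rank or list for naming, 146 had the same direction within control, within fragmentation and within hypoxia. These genes had passed on the same arrays, and those chosen by rank had no overlap, which fixes their direction. The count is therefore no independent check.

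**Figure D1:**
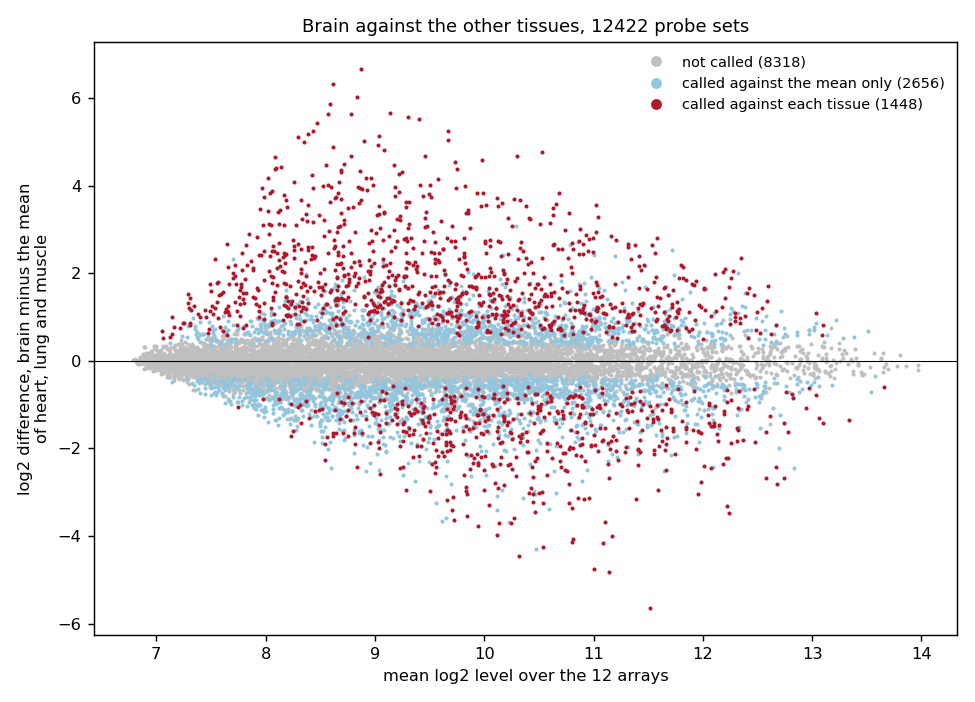
Difference on the log2 scale, brain minus the mean of heart, lung and muscle, against the mean log2 level over the 12 arrays, 1 point per probe set. Red points (1448) passed against each tissue, pale blue points (2656) against the mean only, and grey points (8318) did not pass; the points above 0 reach further from it than those below, up to 6.65 for Snap25.

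Snap25, a membrane protein of the complex that fuses synaptic vesicles, had the largest difference of the 12422 probe sets. The gene lies at chr2:136713439-136782428 (GRCm38.p6). Snap25 read 13.91, 13.93 and 13.76 on the control, fragmentation and hypoxia brain arrays and 6.89 to 8.54 with a median of 7.03 over the 9 others. The groups did not overlap, and the highest other level, on the muscle hypoxia array, was far below any brain array. The difference was 6.65 ± 0.24, or 101-fold (adjusted p = 7.55e-08).

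The other 3 genes that mark brain behaved alike. Zic1, a zinc finger factor of the cerebellum and its precursors (chr9:91358058-91365768), read 13.7, 12.77 and 13.58 in brain against 6.96 to 8.62 with a median of 7.16, a difference of 6.02 ± 0.25. Pcsk1n, an inhibitor of the convertase that cuts peptide hormones (chrX:7919822-7924410), read 13.34, 13.29 and 13.49 against 7.12 to 8.84 with a median of 7.64 (5.65 ± 0.25). Gad1, which makes GABA from glutamate (chr2:70561303-70602014), read 13.4, 13.34 and 13.9 against 7.17 to 9.11 with a median of 8.0 (5.52 ± 0.33). Each lay above all 9 other arrays on all 3 brain arrays, with adjusted p of 1.27e-07, 1.82e-07 and 1.4e-06. For Zic1, Pcsk1n, Gad1 and Scn1a, too, the muscle hypoxia array had the highest level outside brain.

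Beyond these 4, the 15 highest genes without overlap held Vsnl1, a calcium sensor (5.56 ± 0.32), which read 9.0 to 9.29 in lung and 6.88 to 6.96 in heart. Rnf227 (4.99 ± 0.15) and 6330403K07Rik (4.94 ± 0.18) are less studied. The other 8 are described with their groups. With 1 probe set per gene the lowest difference was that of Aqp1, the water channel of red cells and capillaries (chr6:55336299-55348555), at 7.54, 7.64 and 7.39 in brain and 11.86 to 13.31 with a median of 12.01 elsewhere. Its difference was -4.83 ± 0.14 (28.4-fold lower, adjusted p = 3.39e-08), and it was low against all 3 tissues, most against lung (-5.55). A second probe set of Actc1, the cardiac actin, lay lower still (-5.63). Another probe set of Aqp1 did not pass (-0.70, adjusted p = 0.108). Crip1, a small LIM protein, differed by -4.13 ± 0.28, Ces1d, a carboxylesterase, by -4.45 ± 0.19, Anxa1, an annexin that damps inflammation, by -3.59 ± 0.25, and Car3, the carbonic anhydrase of muscle and fat, by -4.06 ± 0.25. Mlf1 (-3.98 ± 0.22) and Tcea3, a transcription elongation factor (-3.41 ± 0.15), were low against each tissue as well.

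**Figure D2:**
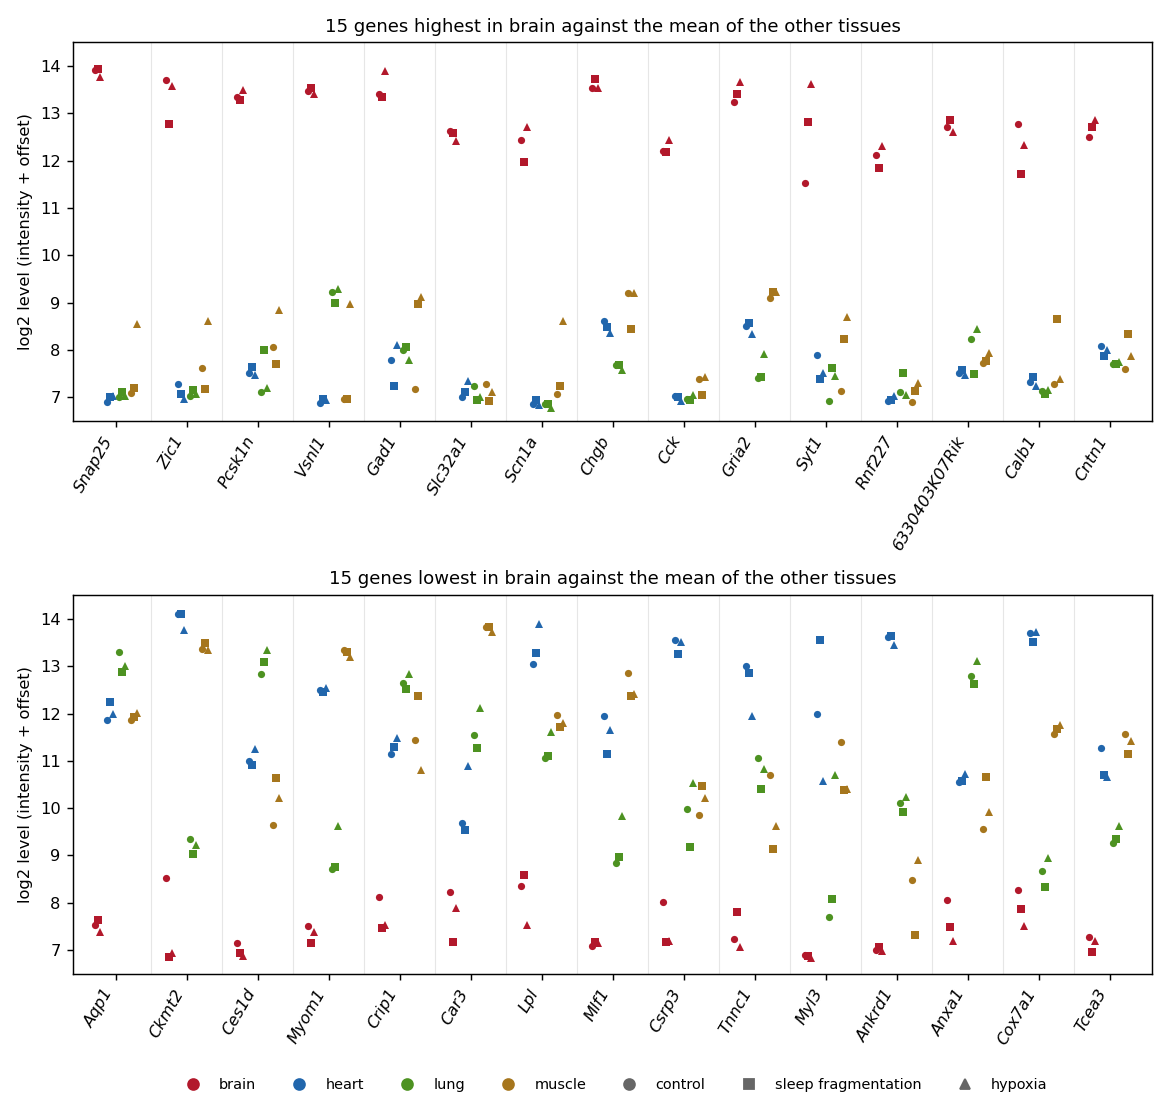
Log2 levels on each of the 12 arrays of the 15 genes highest (top) and 15 lowest (bottom) in brain by the difference from the mean of the other tissues, 1 probe set per gene; colours mark tissues and shapes the exposures. Both sets were limited to genes that passed and whose brain arrays did not overlap the others, so the gap between the red brain points and the rest follows from the choice; Snap25 lies at 13.76 to 13.93 in brain and Aqp1 at 7.39 to 7.64.

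Genes of synaptic vesicle release were higher in brain in 17 of 22 measured cases, with none lower and a list median of 2.61 (-0.06 over all probe sets). Of these, 16 were higher than each tissue. Of all 8251 genes, with 1 probe set each, 1498 were higher and 1568 lower, the background for every list count below. Syt1, the calcium sensor of release, read 11.53, 12.82 and 13.62 in brain and 6.92 to 8.7 with a median of 7.51 elsewhere, so the brain control array was the lowest of the 3 yet far above the others (5.01 ± 0.32). Vamp1, a vesicle partner of Snap25, differed by 4.01 ± 0.28. Pclo, a scaffold of the active zone, read 11.11, 11.14 and 10.76 against 7.13 to 7.33 with a median of 7.2 (3.78 ± 0.12). Syp, the vesicle protein synaptophysin, differed by 3.74 ± 0.22 and Stx1a, a plasma membrane syntaxin, by 2.95 ± 0.24. Cplx1, which clamps the fusion complex, read 11.86, 12.14 and 7.57 and did not pass (1.65 ± 0.69, adjusted p = 0.0987), with the hypoxia array below all 9 other arrays. Rab3a (-0.31 ± 0.24), Syngr1, Bsn and Doc2b did not pass either.

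Related fusion proteins did not follow as a family. Vamp2, the main synaptobrevin of brain, differed by 1.49 ± 0.22, and by 0.58 from lung alone. Another probe set of Vamp2 differed by more (2.91 ± 0.20, adjusted p = 3.49e-06). Vamp8, a synaptobrevin of secretory and endosomal membranes outside the nervous system, was lower in brain (-1.37 ± 0.17), below all 9 others. Vamp3, of recycling endosomes, was lower by less (-0.59 ± 0.13) and lost its call without the exposure term (adjusted p = 0.088) or without the brain hypoxia array (0.0507). Stx4a, a syntaxin of many cell types, did not pass (-0.26 ± 0.13). Dnm1, the dynamin of neurons that pinches vesicles off, was higher (2.19 ± 0.16), and its widely expressed relative Dnm2 did not pass (-0.1 ± 0.13).

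The cytoskeleton of axons and dendrites gave the highest list median, 3.10, with 21 of 23 genes higher and none lower. The neurofilament genes Nefl (3.68 ± 0.24), Nefm (3.4 ± 0.12) and Nefh (3.87 ± 0.2), which set the calibre of axons, were 10-fold or more above the others. Thy1, a surface glycoprotein of neurons, read 13.13, 13.25 and 12.76 against 7.58 to 9.73 with a median of 9.03 (4.39 ± 0.24). Ina, internexin, differed by 4.32 ± 0.42 and Kif1a, the motor that carries vesicle precursors, by 4.09 ± 0.15. Map2, which stabilises dendritic microtubules, was uneven: 8.72, 11.18 and 11.02 on control, fragmentation and hypoxia, against 7.01 to 7.42 with a median of 7.21. Its control level was the lowest of the brain arrays but above all other tissues. The kinesin heavy chains Kif5a (3.34 ± 0.34) and Kif5c (3.1 ± 0.29), of neurons, exceeded the ubiquitous Kif5b (1.0 ± 0.13) in difference, although all 3 passed. Dpysl2 and Dpysl3, which steer growing axons, did not pass.

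For GABA signalling 15 of 17 genes were higher, 10 of them over each tissue, with a median of 1.93. Slc32a1, which loads GABA into vesicles, read 12.63, 12.59 and 12.41 in brain and 6.92 to 7.35 with a median of 7.11 elsewhere (5.44 ± 0.13, adjusted p = 1.59e-08). Gad2, the second GABA-making enzyme, was lower on the control array (8.33, 9.5 and 9.97) but above all 9 others (2.15 ± 0.25). Gabrb1, a receptor subunit, differed by 3.96 ± 0.24. Gabra6, the receptor subunit of cerebellar granule cells, read 12.38, 11.33 and 12.35 against 7.36 to 9.46 with a median of 9.07. Pvalb, a calcium buffer of fast interneurons and of fast muscle, did not pass (0.24 ± 0.61): the hypoxia brain array read 7.73 and the other 2 11.77 and 12.32, while lung had a mean of 11.94.

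Of 19 measured genes of glutamate signalling 15 were higher and none lower (median 1.39). Gria2, the subunit that makes AMPA receptors impermeable to calcium, read 13.25, 13.41 and 13.67 against 7.4 to 9.23 with a median of 8.52 (5.03 ± 0.14, 32.7-fold, adjusted p = 3.39e-08). Its relative Gria1 differed by 3.03 ± 0.17 and Gria3 by 2.18 ± 0.3, while Gria4 differed by 1.06 ± 0.29. Camk2b, a calcium-activated kinase of synapses, was 11.6-fold higher over the mean of the tissues (3.54 ± 0.19) but only 1.23 against muscle. Slc1a6, the glutamate transporter of Purkinje cells, differed by 3.13 ± 0.21, and Dlg4, a scaffold of the receiving synapse, by 2.74 ± 0.3. The receptor subunits Grin2b, Grin2d and Grik5 and the scaffold Homer1 did not pass by their brightest probe sets, but another of Grik5 did (1.71 ± 0.15, adjusted p = 1.88e-05).

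Promoters of all measured genes were searched for the core of the element bound by REST, the repressor that silences neuronal genes outside the nervous system, because that element is known from neuronal promoters. The window ran from 250 bases before the start site to 50 after it, in the RefSeq promoter table of GRCm38.p6, and the motif was CAGCACC, then 2 unspecified bases, then GGACAG, on either strand with at most 1 mismatch. It was found in 3 of the 538 matched genes that were high in brain over each tissue (0.558%), in 0 of 311 low genes, in 13 of the 6572 measured genes with a promoter (0.198%) and in 61 of all 32851 promoters (0.186%). The 3 were Gad2, Gria2 and Rasgrf1, an activator of Ras at synapses (11.14, 11.49 and 12.11 in brain, 6.78 to 7.4 with a median of 6.84 elsewhere, 4.66 ± 0.18). They are printed with 60 bases around the match, 5′ to 3′ on the strand of the gene, the matched letters in capitals. The windows are chr2:22622141-22622200 (plus strand) for Gad2, chr3:80802968-80803027 (minus strand) for Gria2 and chr9:89909570-89909629 (plus strand) for Rasgrf1, and the matches begin at positions -164, -170 and -183 from the start sites. In Gria2 and Rasgrf1 the match lies on the opposite strand, so both parts appear as reverse complements. Each of the 3 printed matches holds 1 mismatch. Other measured genes with a match included Lhx3, which did not pass (-0.04) and had 0 mismatches, and Crip2, at -1.69. A match is a description of the letters and no evidence of binding.
Gad2: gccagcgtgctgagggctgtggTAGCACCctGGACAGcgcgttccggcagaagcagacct
Gria2: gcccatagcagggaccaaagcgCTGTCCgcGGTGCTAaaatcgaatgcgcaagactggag
Rasgrf1: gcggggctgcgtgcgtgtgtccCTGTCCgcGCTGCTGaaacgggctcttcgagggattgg

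Genes of peptide hormones and their granules were higher in 13 of 18 cases, all 13 over each tissue, with a median of 2.30. Chgb, a core protein of dense granules, read 13.54, 13.74 and 13.54 against 7.57 to 9.21 with a median of 8.44 (5.24 ± 0.17). Another probe set of Chgb did not pass (0.57, adjusted p = 0.0814). Cck, a peptide transmitter of cortex and gut, read 12.2, 12.18 and 12.43 against 6.92 to 7.44 with a median of 7.03 (5.18 ± 0.12, 36.3-fold). Scg2, another granin, differed by 4.5 ± 0.15, and Sst, the peptide somatostatin of interneurons, by 3.95 ± 0.16. Penk (2.65 ± 0.16) and Tac1 (2.1 ± 0.28), peptide precursors of the striatum, were higher too. Pnoc, Pam, Gal, Pcsk1 and Pdyn did not pass, although another probe set of Pdyn was higher (0.86 ± 0.22, adjusted p = 0.013).

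Some promoters of this group held the full cyclic AMP response element, TGACGTCA, which reads the same on both strands and is bound by the factor CREB. In the same window it occurred in 29 of the 538 genes high in brain (5.39%), 7 of the 311 low genes (2.25%), 208 of the 6572 measured genes (3.16%) and 588 of all 32851 promoters (1.79%). Of the peptide hormone list it was found in Chgb, Scg2 and Sst, high in brain over each tissue, and in Pcsk1, a prohormone convertase that did not pass (0.37, the element at position -78). Chgb, Scg2 and Sst are shown, chosen after the matches were seen, because their differences are described here. The windows are chr2:132781544-132781603 (plus strand) for Chgb, chr1:79440061-79440120 (minus strand) for Scg2 and chr16:23890859-23890918 (minus strand) for Sst. The element, in capitals, begins at positions -72, -68 and -48 from the start site.
Chgb: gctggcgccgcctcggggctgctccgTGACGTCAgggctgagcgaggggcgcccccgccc
Scg2: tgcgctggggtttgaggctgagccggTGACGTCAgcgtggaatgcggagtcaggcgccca
Sst: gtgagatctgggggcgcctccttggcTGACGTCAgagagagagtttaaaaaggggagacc

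These shares are descriptions over genes, which are not independent replicates, and only genes in the promoter table count. For each motif a gene counts if any of its promoters matches, while the share over all promoters counts each promoter singly. The gene shares and the promoter share are therefore in unlike units. The TATA box letters TATAAA, on the strand of the gene between 40 and 15 bases before the start site, were found in 2.42% of the brain-high genes, 3.86% of the low genes, 3.36% of the measured genes and 1.99% of all promoters. Median GC content of the promoters was 62.8% in the high and 60.3% in the low genes, and the observed to expected ratio of CpG was 0.777 in the high, 0.622 in the low and 0.722 in the measured genes. Genes high in brain spanned a median of 29.9 kb, those low in brain 17.8 kb and all measured genes 19.2 kb. Of the 691 high genes 34 lay on the X chromosome (4.92%), against 5 of the 394 low genes (1.27%) and 259 measured genes (3.14%).

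Ion channels and pumps of neurons were higher in 15 of 21 cases, none lower (median 2.05). Scn1a, the sodium channel of inhibitory neurons that is mutated in a severe childhood epilepsy, read 12.45, 11.97 and 12.7 against 6.76 to 8.6 with a median of 6.86 (5.26 ± 0.25). Kcna1, a potassium channel of axons, differed by 4.47 ± 0.17, and Kcnab2, its accessory subunit, by 3.63 ± 0.22. Kcnd2, the channel of the transient dendritic current, differed by 3.35 ± 0.22. Of the sodium pump, Atp1b2, the beta subunit of glia, differed by 2.62 ± 0.22, more than Atp1b3 (0.99 ± 0.14) and Atp1b1 (0.76 ± 0.14), and by 1.04 against muscle alone. Another probe set of Atp1b2 did not pass (-0.40, adjusted p = 0.0601). Hcn2, Kcnj3, Kcnj6, Kcna4, Cacna1b and Cacna1e did not pass. Hcn2 has another probe set with a difference of 3.63 and adjusted p = 2.03e-06, so the choice of probe set decides that gene.

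Neural transcription and RNA-binding factors passed in 15 of 20 cases, all higher, 12 of them over each tissue (median 1.41). The RNA-binding Hu proteins Elavl2 (3.51 ± 0.17), Elavl3 (2.89 ± 0.22) and Elavl4 (2.19 ± 0.16) and the splicing factor Celf4 (3.37 ± 0.21) were all higher. Neurod1, a helix-loop-helix factor of granule cells, differed by 3.24 ± 0.28. Sox2, a factor of stem cells, glia and airway, differed by 2.11 ± 0.21 and least from lung (1.06). Neurod2 was higher over the mean (1.35 ± 0.19) but not over muscle (adjusted p = 0.996). Zic2, Sox3, Sox11, Pou3f1 and Pou3f2 did not pass by their brightest probe sets. Of those, Zic2 passed by another (1.53 ± 0.12), and Sox3 had 1 other probe set higher and 1 lower in brain.

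Adhesion molecules and brain matrix were higher in 10 of 12 cases (median 1.87), and in 6 when dim probe sets were left out. Cntn1, an adhesion protein of axons and nodes, read 12.5, 12.72 and 12.85 against 7.6 to 8.33 with a median of 7.87 (4.81 ± 0.16). Nrcam, which clusters sodium channels, differed by 3.67 ± 0.2 and Bcan, the brain proteoglycan brevican, by 2.76 ± 0.18. Sparcl1, a matrix protein of astrocytes, differed by 2.09 ± 0.11, with the smallest gap to lung (1.23). Ntrk2, the receptor of brain-derived neurotrophic factor, read 7.1, 9.2 and 9.37, so the control array lay within the other tissues (7.1 to 7.37 with a median of 7.21). Its difference of 1.33 ± 0.35 no longer passed without the fragmentation (adjusted p = 0.108) or hypoxia array (0.107).

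Myelin genes were higher in 11 of 13 cases, 9 of them over each tissue, with a median of 2.04. Mbp, a main protein of compact myelin, read 14.13, 14.1 and 14.07 in brain, nearly level over the 3 arrays, against 8.61 to 10.53 with a median of 9.16 (4.76 ± 0.21, 27.0-fold, adjusted p = 2.12e-07). Mobp, another myelin protein, differed by 4.54 ± 0.27 through its brightest probe set and by 4.68 to 6.32 through 3 others. Mag (3.99 ± 0.19), Cldn11, the tight junction protein of myelin (3.93 ± 0.2), and Mog (3.46 ± 0.11), on the outer surface of the sheath, also passed over each tissue. Cnp and Gpr37 did not pass. Nor did other probe sets of Mbp (0.08), Mag (-0.67) and Cldn11 (0.35).

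Astrocyte genes were higher in 11 of 17 cases (median 1.44), with Fgfr3 lower (-1.35 ± 0.21), a call lost when its probe sets were averaged (-0.23, adjusted p = 0.287), since another of them was higher in brain. Ntsr2, a neurotensin receptor of astrocytes, read 12.13, 12.0 and 12.35 against 7.74 to 8.62 with a median of 8.25 (3.96 ± 0.12). S100b (3.3 ± 0.15), a calcium-binding protein, Aqp4 (2.72 ± 0.25), the water channel of astrocyte end feet, and Gfap (2.1 ± 0.36), their intermediate filament, were higher over each tissue. Aqp4 thus ran opposite to Aqp1. Slc1a2, the main glutamate transporter, was at 9.73 to 9.76 on the brain arrays and passed narrowly (1.07 ± 0.36, adjusted p = 0.0433), a call lost without any 1 of the brain arrays (0.116 to 0.155) and without several single arrays of the other tissues. Apoe, Clu, Cst3, Glul and Ndrg2, which other tissues also make, did not pass by their brightest probe sets, but others of Glul (1.01, adjusted p = 0.00517) and Clu (0.80, adjusted p = 0.0127) were higher in brain.

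Of 15 microglia and macrophage genes, smaller shares passed than of all probe sets (16.1% higher, 16.9% lower) or of all 8251 genes (1498 and 1568). Ctss, a lysosomal protease, was higher (0.7 ± 0.16), Ptprc (-0.91 ± 0.24) and Cd14 (-0.77 ± 0.19) lower, and the other 12 did not pass (median -0.09). Csf1r, the receptor that microglia and macrophages need, read 10.34, 10.55 and 10.46 in brain and 9.41 to 11.11 with a median of 10.37 elsewhere, and the groups overlapped. The calls of Ctss, Ptprc and Cd14 were each lost without 1 brain array: Ctss without the fragmentation array (adjusted p = 0.0546), Ptprc without the same (0.107) and Cd14 without the hypoxia array (0.054). In bulk tissue fewer cells of a type and less RNA per cell cannot be told apart, for this and for every list here.

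**Figure D3:**
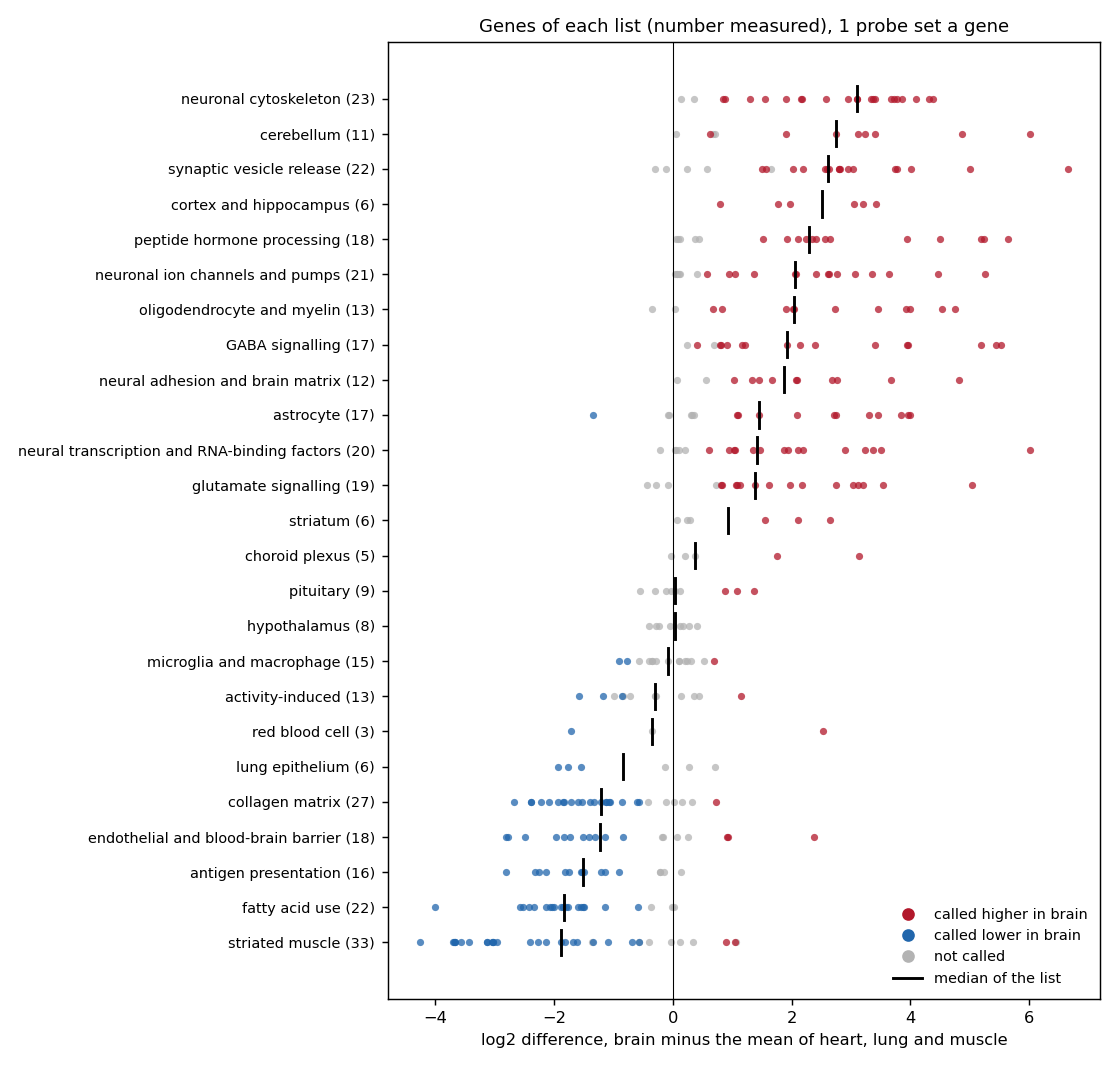
Difference on the log2 scale, brain minus the mean of heart, lung and muscle, for every measured gene of 25 lists, 1 probe set per gene; red genes passed as higher in brain, blue as lower, grey did not pass, and the bar is the list's median. Medians run from 3.10 for the neuronal cytoskeleton to -1.88 for striated muscle, with microglia, pituitary and hypothalamus near 0.

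Lists of brain regions were used to see what the brain samples held. Cerebellar genes were higher in 8 of 11 cases (median 2.75), led after Zic1 by Calb1, a calcium buffer of Purkinje cells (12.77, 11.73 and 12.34 against 7.06 to 8.64 with a median of 7.27, 4.88 ± 0.3). All 6 genes of cortex and hippocampus were higher (median 2.51), among them Tbr1, a factor of cortical projection neurons (3.41 ± 0.21), Nrgn, a calmodulin buffer of forebrain neurons (3.21 ± 0.28), and Hpca (3.05 ± 0.24). Without the control, fragmentation or hypoxia array 5, 4 and 3 of those 6 passed. For the striatum 3 of 6 passed, and for the hypothalamus 0 of 8 in limma, also 0 at an unadjusted p under 0.05, with Oxt, oxytocin, at 9.65, 11.03 and 9.07 against 9.35 to 11.34 with a median of 10.62. Beside these small lists, 1498 of all 8251 genes were higher and 1568 lower. In the choroid plexus list Ttr, the thyroxine carrier of cerebrospinal fluid (3.13 ± 0.18), and Kl, klotho (1.76 ± 0.14), were higher over each tissue, and Igf2, Igfbp2 and Folr1 did not pass.

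The 3 brain arrays differed in these region genes. The summed intensity of the cerebellar list was 56524 on the control, 25296 on the fragmentation and 41739 on the hypoxia array, and that of the cortex and hippocampus list 4953, 11318 and 11165. Camk2a, the kinase of forebrain excitatory synapses, read 7.84, 10.74 and 10.98. Its control level lay inside the range of the other tissues, and the difference of 1.97 ± 0.57 no longer passed without the fragmentation (adjusted p = 0.161) or the hypoxia array (0.16). Neurod6, a factor of cortical excitatory neurons, read 7.45, 9.53 and 10.18 against 7.01 to 7.53 with a median of 7.27 (1.76 ± 0.41), overlapping on the control array, with adjusted p of 0.0595 and 0.0613 without those arrays. Car8, a Purkinje cell protein, ran the other way, at 13.8, 11.93 and 12.84, and Cbln1, the synapse organiser of granule cells, at 12.89, 11.27 and 12.2. Both were above all other arrays on every brain array. Whether the samples held different parts of the brain was not tested, and with 1 array per exposure it cannot be told apart from an effect of exposure.

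Genes of neighbouring or distant organs differed between the brain arrays as well. Gh, growth hormone of the pituitary, read 10.83, 13.64 and 11.38 and 9.93 to 11.24 with a median of 10.66 elsewhere. The fragmentation array was high, and the call (1.36 ± 0.41) was lost without it (0.54, adjusted p = 0.129), and also without the hypoxia array (0.0581). The pituitary list had a summed intensity of 6017, 20260 and 6903 on the control, fragmentation and hypoxia arrays and 3846 to 8776 on the others. Its other called genes were Prl (0.88 ± 0.27) and Pomc (1.07 ± 0.26), with adjusted p of 0.0826 and 0.0751 without the hypoxia array, and Prl was also lost without the fragmentation array (0.53, adjusted p = 0.211). Scgb1a1 read 13.67, 9.37 and 9.14, with the control level the highest of all 12 arrays, and did not pass (0.71 ± 1.08). Acta1 read 12.96, 8.96 and 11.86, and the striated muscle list summed to 27125, 15996 and 21812 in brain against 33794 to 168993 elsewhere. Their part in other differences was not tested.

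**Figure D4:**
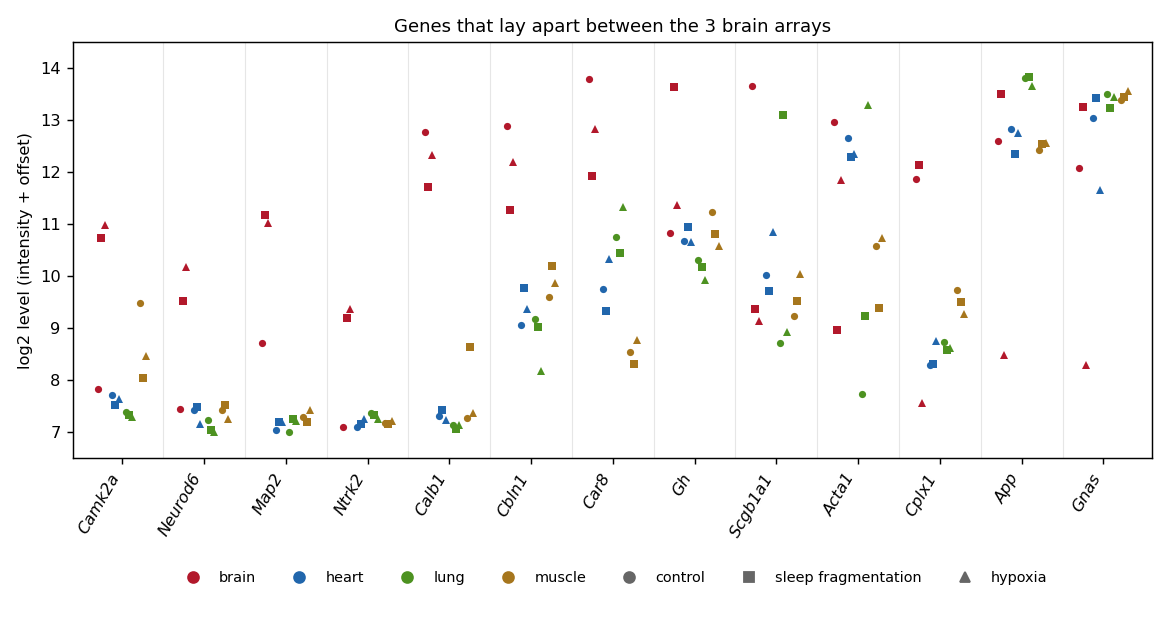
Log2 levels on the 12 arrays of 13 genes that lay apart between brain arrays; colours mark tissues and shapes exposures. Camk2a, Neurod6, Map2 and Ntrk2 are lowest of the brain arrays on control, Calb1, Cbln1 and Car8 highest there, Gh is highest on fragmentation (13.64), Scgb1a1 on control (13.67), and Cplx1, App and Gnas fall to 7.57, 8.49 and 8.29 on hypoxia.

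Between single brain arrays, 484 probe sets (3.9%) were 2-fold or more apart between fragmentation and control, 238 higher and 246 lower on fragmentation. Hypoxia and control differed so in 683 (5.5%), 264 higher and 419 lower on hypoxia, and hypoxia and fragmentation in 586 (4.72%), 163 higher and 423 lower. These counts have no replicate check and no test. Of the 691 genes high in brain over each tissue, 634 varied by less than 1 on the log2 scale over the 3 brain arrays. Their median range was 0.46. These genes had passed on the same arrays, which favours a small range, and the range over all genes was not computed. The count is therefore no evidence that brain genes were alike over the exposures. Of the 691, the 5 widest were Neurod6, Map2, Ntrk2, Ppfia4 and Syt1. Ppfia4, a liprin of synapses, was the only one of these that was highest on the control array (10.78, 9.4 and 8.58).

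Related enzymes and carriers, some named for brain and some for muscle, were compared gene by gene. Eno2, the enolase of neurons, read 13.64, 13.0 and 13.6 in brain and 7.7 to 9.87 with a median of 9.03 elsewhere (4.57 ± 0.33, 23.8-fold). Eno3, the enolase of muscle, was lower in brain (-2.15 ± 0.24), though not against lung alone (-0.8, adjusted p = 0.0591). Aldoc, the aldolase of astrocytes and Purkinje cells, was higher (3.99 ± 0.27) while Aldoa did not pass (-0.32 ± 0.17). Pgam1 was higher (2.43 ± 0.19) and Pgam2, the mutase of muscle, lower (-4.28 ± 0.29), by -5.73 against heart and -6.61 against muscle and only -0.51 against lung. Of the glycogen phosphorylases, Pygb, the brain form, differed by 0.77 ± 0.14, yet was lower than in heart (-1.52), and Pygm, the muscle form, by -1.64 ± 0.29.

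Of 3 glucose transporters 2 were higher and 1 lower. Slc2a1, the transporter of the blood-brain barrier and glia, differed by 2.38 ± 0.21, and Slc2a3, that of neurons, by 1.4 ± 0.24, both over each tissue. Slc2a4, the insulin-responsive transporter of muscle and fat, read 7.52, 7.55 and 7.65 in brain and 7.45 to 12.54 with a median of 12.39 elsewhere (-3.4 ± 0.25). It was far below heart (-4.71) and muscle (-4.89), and its lung levels overlapped those of brain. Hk2, the hexokinase of insulin-sensitive tissue, was lower (-3.35 ± 0.26), and Hk1 did not pass (-0.62 ± 0.24). Other probe sets of Slc2a4 (0.10) and Hk2 (-0.15) did not pass. Of lactate dehydrogenase, Ldhb was higher (0.9 ± 0.25), a call lost without the control array (adjusted p = 0.0747), without the fragmentation array (0.127) and when probe sets were averaged (0.137), and Ldha did not pass.

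Of 4 creatine kinases 2 were lower and 1 higher. Ckmt2, the mitochondrial form of heart and muscle, read 8.52, 6.86 and 6.93 against 9.04 to 14.1 with a median of 13.37 (-4.76 ± 0.26, 27.1-fold lower), and Ckm, the cytosolic form of muscle, differed by -3.13 ± 0.29. Another probe set of Ckm did not pass (-0.06). Ckb, the brain form, was higher by 0.84 ± 0.21 but by 0.25 against heart, and the call was lost without the control (adjusted p = 0.0713) or the fragmentation array (0.0982). Ckmt1 did not pass by its brightest probe set (0.22 ± 0.13) and did by the other (2.12 ± 0.21). Among fatty acid binding proteins Fabp7, of astrocytes and precursors, was higher (3.84 ± 0.22) and Fabp3 (-2.14 ± 0.15) and Fabp4 (-1.85 ± 0.25), of muscle and fat, lower. Metallothioneins, which bind zinc and copper, were higher in all 3 cases, Mt2 by 1.68 ± 0.25, Mt3 by 1.44 ± 0.17 and Mt1 by 1.13 ± 0.28, the last lost without the control array (adjusted p = 0.0836).

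**Figure D5:**
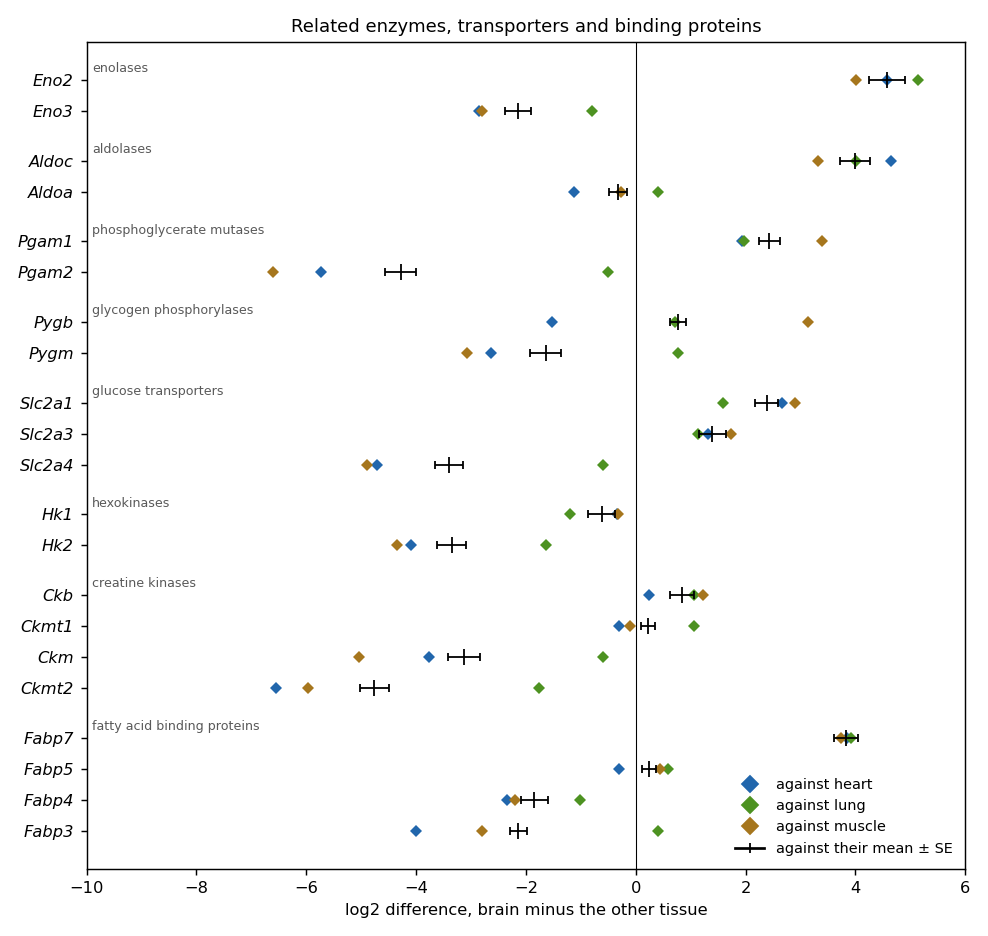
Difference on the log2 scale between brain and heart (blue), lung (green) and muscle (brown), and between brain and their mean with its standard error (black), for related genes of 8 families. Eno2, Aldoc, Pgam1, Slc2a1 and Fabp7 lie to the right against all 3 tissues, while Pgam2, Slc2a4 and Ckm lie far to the left against heart and muscle and nearer to 0 against lung.

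Genes of striated muscle were lower in 24 of 33 cases and higher in 2 (median -1.88). Myom1, a protein of the sarcomere's M band, read 7.51, 7.15 and 7.38 in brain and 8.71 to 13.35 with a median of 12.49 elsewhere (-4.26 ± 0.18), with muscle at a mean of 13.28 and lung at 9.03. Csrp3, a stress sensor of the Z disc (-3.71 ± 0.27), Tnnc1, the troponin C of heart and slow muscle (-3.69 ± 0.29), and Myl3, a ventricular light chain (-3.66 ± 0.7), were lower with no overlap, although Myl3 did not pass against lung alone (adjusted p = 0.105). So was Ankrd1, a cardiac stress gene, by -6.56 against heart and -1.23 against muscle. Cox7a1, the cytochrome oxidase subunit of heart and muscle, differed by -3.44 ± 0.17. Ryr2, the calcium release channel of heart and of neurons, was higher over the mean (1.05 ± 0.16) but lower than in heart (-2.35). The calcium pump Atp2a2 did likewise (0.9 ± 0.18 over the mean, -0.9 against heart).

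Fatty acid use had the largest share of lower genes among the lists, 19 of 22, with none higher (median -1.83). Lpl, which frees fatty acids from blood lipids, read 8.35, 8.59 and 7.54 against 11.05 to 13.89 with a median of 11.81 (-4.01 ± 0.26), and the groups did not overlap. Cd36, a fatty acid receptor, differed by -2.57 ± 0.18 through its brightest probe set, and another did not pass (0.02). Of the mitochondrial enzymes Acaa2, a thiolase of the last step of beta oxidation, was alike in its distance to heart (-2.49), lung (-2.47) and muscle (-2.32). Acadm, the medium-chain dehydrogenase, was further from heart (-3.15) than from lung (-1.39). Pdk4, which holds pyruvate back from oxidation, differed by -2.52 ± 0.16 and not beyond the threshold from lung (-0.38). Over the list the median difference was -2.69 against heart and -0.70 against lung. Acads, Acadvl and Cpt1a did not pass, although a second probe set of Acads did (-2.16 ± 0.12).

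Vessel genes were lower in 11 of 18 cases, higher in 3, with a median of -1.23. Cdh5, the cadherin of endothelial junctions, read 8.95, 8.07 and 8.99 in brain and 9.68 to 13.21 with a median of 11.3 elsewhere (-2.81 ± 0.23), with lung highest. Cav1, which forms caveolae (-2.77 ± 0.17), and the receptor Tie1 (-2.49 ± 0.18) were lower than in each tissue. Another probe set of Cav1 did not pass (-0.37, adjusted p = 0.0658), while another of Tie1 did (-2.33). The genes higher in brain were Slc2a1 (above), Slc7a5, an amino acid carrier of the blood-brain barrier (0.91 ± 0.24), and Itm2a (0.93 ± 0.22), the last lost without the fragmentation array (adjusted p = 0.0602). Cldn5, the claudin of the barrier, did not pass over the mean (0.06 ± 0.14): it was 0.77 above heart, 1.93 above muscle and -2.52 against lung.

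Collagens and other matrix genes were lower in 21 of 27 cases and higher in 1 (median -1.22). Dcn, the proteoglycan decorin, read 10.56, 10.29 and 10.88 against 12.75 to 13.78 with a median of 13.25 (-2.67 ± 0.14). Col3a1, a fibrillar collagen, differed by -2.39 ± 0.24, Postn, of fibroblasts, by -2.38 ± 0.22, and Bgn, biglycan, by -2.22 ± 0.17. Sparc was the gene higher in brain (0.73 ± 0.15), though below lung (-0.72). Col1a2 did not pass by its brightest probe set (0.02 ± 0.21) but was lower by the other (-2.07 ± 0.23). Of 2073 genes with more than 1 probe set, 27 had probe sets that passed in opposite directions.

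Antigen presentation was lower in 12 of 16 cases and never higher (median -1.52). The class II chain H2-Aa read 7.75, 7.46 and 7.55 in brain and 7.72 to 13.31 with a median of 10.05 elsewhere (-2.81 ± 0.25), with lung at 13.07 to 13.31 and muscle not beyond the threshold (-0.55). H2-Eb1 (-2.26 ± 0.15) and H2-Ab1 (-2.32 ± 0.24), also of class II, were low against each tissue. So were the class I heavy chains H2-D1 (-1.82 ± 0.15) and H2-K1 (-1.54 ± 0.11), whose probe sets can share sequence with other class I genes. The immunoproteasome subunit Psmb8 differed by -1.75 ± 0.12. The medians were -1.11 against heart and -2.39 against lung.

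The remaining lists were small or mixed. Of the lung epithelium list Ager (-1.94 ± 0.18), Sftpb (-1.77 ± 0.22) and Cyp2f2 (-1.54 ± 0.27) were lower in brain and the other 3 did not pass. Red blood cell genes went both ways: Hba-a1, alpha globin, read 13.68, 13.68 and 13.49 against 8.97 to 12.81 with a median of 11.4 and was higher (2.54 ± 0.53), and Alas2, the heme enzyme of red cells, lower (-1.72 ± 0.27). Of 13 genes induced by activity 3 were lower and 1 higher, beside 16.9% and 16.1% of all probe sets and 1568 and 1498 of all 8251 genes. The counts were therefore not read as a result about the list. The lower genes were Dusp1 (-1.59 ± 0.13), Ier2 (-1.18 ± 0.2) and Nr4a1 (-0.86 ± 0.22), and the higher gene was Bdnf (1.15 ± 0.33). Bdnf rested on the gap to muscle (2.68) and was lost without the fragmentation (adjusted p = 0.0646) or the hypoxia array (0.136), and Nr4a1 without the control (0.099) or the fragmentation array (0.0506). Fos, Junb and Egr1 did not pass by their brightest probe sets, while another of Junb was lower (-0.97, adjusted p = 0.0021) and another of Egr1 higher (0.87, adjusted p = 0.0068).

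For each of the 691 genes high in brain over each tissue the array with its highest level outside brain was counted. The lung hypoxia array held 114, the muscle hypoxia array 108 and the heart hypoxia array 92, and the heart fragmentation array the fewest, 46. No such count was made over all genes, so these counts are not read as a trait of brain genes. The median level of the 691 genes was 9.07 to 9.20 on the 9 arrays. At the threshold the last gene to pass was Guk1, guanylate kinase (0.35 ± 0.12), and the first not to was Pparg, a fat cell factor (-0.84 ± 0.29, adjusted p = 0.0501).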

How the data were processed

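The 12 tissue arrays (Affymetrix U74Av2, 12488 probe sets) were used as deposited, 1 intensity per probe set and array on a linear scale. The method by which the authors summarised probes into these deposited intensities was not given in the sources used here. After 66 platform controls were dropped, 12422 probe sets were tested; 10833 had 1 gene symbol, 396 several and 1193 none in the platform annotation, giving 8251 genes. Arrays were quantile normalized together, an offset of 106, the 20th percentile, was added and log2 taken, with no filter on low values. limma 3.58.1 in R 4.3.3 fitted tissue and exposure (lmFit and eBayes, two-sided, 6 residual degrees of freedom), and p-values were adjusted by Benjamini-Hochberg over all 12422. The probe set with the highest mean stood for a gene. Several genes that passed have other probe sets that did not, and not all of these are named. The text names the 15 genes highest and 15 lowest that passed with no overlap and up to 4 called members of each list, and beyond that rule members named after their values were seen. Members, lists and families were chosen with earlier results of these data known. Checked on simulated data of the same size, the fit recovered 94% and 92% of changes of 2 and -2 on the log2 scale and 62% and 68% of 1 and -1, with 4 false calls. The simulation changed only 50 probe sets at each size and drew independent normal noise. It held no exposure effect, normalization step or outlying array, so its rates do not give the error in these data. Scaling, offset, filter, exposure term, variance trend, probe set choice and single arrays were varied. Adipose arrays were not used here.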

Additional observations from a re-analysis of the deposited data

How the results depend on the processing

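Counts of calls stayed within 1.5 times the values given under all the alternatives to normalization, offset, filter, model and arrays, from 1596 to 2042 higher and 1591 to 2189 lower (769 to 1026 and 395 to 528 against each tissue), and scaling each array to the same median gave 1857 higher and 2189 lower. Of 148 named genes that passed, 129 passed in the same direction in every tested alternative. Genes removed by the filter were left out of that alternative. The named genes had passed on the same arrays, many of them chosen for large differences, so this count is no independent check. Without single arrays, differences changed sign for genes that did not pass: Sftpc ranged from -0.0409 to 0.759, Scgb1a1 from -1.11 to 1.76, Sftpd from -0.492 to 0.138, Acta1 from -0.812 to 1.18, Cx3cr1 from -0.0917 to 0.529 and Dnm2 from -0.175 to 0.0125. Within the control exposure alone Ntrk2 was at -0.113 and Camk2a at -0.362, and scaling to the median put Ldha at -0.0435. Among lists, neural adhesion had 6 higher genes with the filter, choroid plexus 1, and cortex and hippocampus 3 without the brain hypoxia array. Other lists moved too: pituitary had 1 and 0 higher genes without the brain fragmentation and hypoxia arrays, microglia 0 to 2 higher and 1 to 4 lower, hypothalamus 1 lower without the brain fragmentation array, and activity-induced genes 0 to 2 higher and up to 5 lower. The causes were not tested. No paired analysis was possible because the replicate number is the exposure, which the fit already holds as a term. Signal near the offset limits the dimmest genes.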

Other observations

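Most genes high in brain lay outside the lists: 558 of the 691 high over each tissue, and 344 of the 394 low under each. The genes below were chosen from these after their values were seen. Ndn, necdin, read 12.83, 12.82 and 13.06 in brain and 8.48 to 9.7 with a median of 9.13 elsewhere (3.72 ± 0.13). Meg3, a noncoding RNA, differed by 3.61 ± 0.13, Peg3 by 3.26 ± 0.29 and Nnat, neuronatin, by 3.24 ± 0.28. For all 4 the brain arrays lay above the 9 others. Apod, a lipid carrier of glia, differed by 4.15 ± 0.2, Psat1, of serine synthesis, by 4.01 ± 0.31, and Reln, which guides neuron position, by 3.76 ± 0.27.

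Among low genes, Lyz2, lysozyme of macrophages, differed by -3.14 ± 0.14, Txnip, a regulator of glucose uptake, by -3.05 ± 0.12, Plin2, a lipid droplet coat, by -2.66 ± 0.19 and Adipoq, the fat cell hormone adiponectin, by -2.62 ± 0.54. The calcium-binding or lectin genes S100a6 (-2.49 ± 0.17), Lgals1 (-2.43 ± 0.12) and Anxa2 (-2.3 ± 0.34) were lower as well.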
